A study of Mus musculus with 14 samples.

Results

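Grp, the gene for gastrin-releasing peptide, was followed as 1 of the 21568 genes counted in single cells of the mouse lateral hypothalamic area. It was chosen from measured values, because its counts in GABAergic neurons set the diets apart in an earlier reading of these data, so its difference between diets is given as a description, and a test of it would be no independent evidence. Its counts of unique molecular identifiers (UMIs, each standing for 1 captured RNA molecule) were read in every barcode that had 500 or more UMIs from 300 or more genes, of which mitochondrial transcripts took 20% at most. These filters kept 15378 of 28410 barcodes, and 187 of those held 654 Grp UMIs in all. GENCODE M21 places it, as a protein-coding gene, on the plus strand of chromosome 18 (GRCm38).

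The cells came from tissue punches of male wildtype C57BL/6J mice and were captured by Drop-seq, in which each cell shares a droplet with a barcoded bead. Of the 14 mice, 7 ate a high fat diet and 7 a taste-matched control chow. Food and water were freely available, and the light cycle was reversed. Each sample was 1 mouse, and sequencing pool 1 held 4 mice of each diet and pool 2 held 3. The labels used here give neither the age of the mice nor how long they ate the diet. A punch can also take in cells from next to the lateral hypothalamic area.

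Gastrin-releasing peptide belongs to the bombesin-like peptides, together with neuromedin B. It is cut from a longer precursor, stored in dense-core vesicles and released from neurons, and it acts mainly on the receptor encoded by Grpr, which signals through Gq proteins and phospholipase C. Neuromedin B acts mainly on the receptor encoded by Nmbr, and the third receptor of the family, Brs3, has no known natural peptide of high affinity. In rodents bombesin-like peptides given into the brain reduce food intake, and mice without Brs3 become obese. Grp is also a known peptide of the suprachiasmatic nucleus, the circadian clock of the hypothalamus.

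After 214 barcodes called doublets (1.39%) were removed, 15164 cells remained, with a median of 1337.5 UMIs. Depth was uneven: a mouse gave 49 to 1753 cells and 147470 to 5611524 UMIs over all its barcodes, and 4 to 428 GABAergic neurons. No Grp UMI is listed for high fat diet replicate 7, which had 49 cells and 4 GABAergic neurons. Kept barcodes of different mice shared 3 sequences. The neuron mix set 3 mice apart, which were control replicates 1 and 2 together with high fat diet replicate 1: the GABAergic neurons of subcluster 4, led by Col25a1 and Cnr1, made up 16.8 to 26.4% of their neurons and 0 to 2.91% in the other 11 mice. Diet values are therefore also given without these 3 mice. Class names below mean clusters that resemble a class by its markers, and Grp was left out of the genes used to cluster the cells.

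Grp was detected mainly in neurons. The 6191 neurons held 638 of the 650 Grp UMIs in cells, and 173 neurons (2.79%) had at least 1. The 8973 other cells held 12 UMIs in 11 cells (0.123%), with no more than 2 UMIs in a cell. In oligodendrocytes, which should lack the peptide, 6 of 6178 cells had a UMI (0.0971%). The median neuron had 3433 UMIs and the median oligodendrocyte 1095. When each cell was thinned to 1500 UMIs and shallower cells were left out, 1.80% of the 4809 neurons and 0.199% of the 2007 other cells that remained were positive. Astrocytes, microglia and mural cells had no Grp UMI in 913, 447 and 115 cells, which allows shares of up to 0.329%, 0.671% and 2.61%. Within mice, neurons gated on transmitter genes stood at 26.0 ± 11.4 UMIs per 1000000 UMIs of all genes (CPM, counts per 1000000; mean ± SD, n = 13 mice) and oligodendrocytes at 2.00 ± 5.37. Neurons were higher in 13 of 13 mice, by 3.85 ± 1.32 (SD) on the log2(CPM + 1) scale (two-sided exact sign-flip permutation test, p = 0.000244, the smallest 13 mice allow, and 0.000488 adjusted over both class tests).

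Both GABAergic and glutamatergic neurons held Grp. The 3162 GABAergic neurons carried 372 UMIs in 96 cells (3.04%, 25.5 CPM), and the 1905 glutamatergic neurons 251 UMIs in 67 cells (3.52%, 26.9 CPM). Neurons that could not be given a class added 14 UMIs in 9 of 929 cells. Of the peptide neurons that define this area, the 138 hypocretin neurons had 1 UMI, and the 57 neurons with melanin-concentrating hormone had none, which allows a share of up to 5.26%. Classes were also set per neuron by the transmitter genes themselves: Slc32a1, the vesicular GABA transporter, with Gad1 and Gad2, the GABA-making enzymes, against Slc17a6, a vesicular glutamate transporter. Of the 173 Grp-positive neurons, 91 had only GABA markers, 50 only Slc17a6, 24 both and 8 neither. These shares were 52.6%, 28.9%, 13.9% and 4.62%, beside 58.2%, 22.3%, 12.6% and 6.96% of Grp-negative neurons. Over the 12 mice with at least 10 gated cells of each kind, Grp stood at 23.1 ± 15.7 CPM in GABAergic and 32.3 ± 29.4 CPM in glutamatergic neurons (SD). The difference of −0.07 ± 2.27 (SD) on the log2(CPM + 1) scale was smaller than the spread between mice, with GABAergic neurons higher in 4 of 12 (two-sided exact sign-flip permutation test, p = 0.918).

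Most positive cells held little Grp and a few held much of it. The median positive cell had 1 UMI and the mean 3.53, and 95 of the 184 positive cells (51.6%) had exactly 1. At the other end, 40 cells with at least 5 UMIs held 427 UMIs, 65.7% of the total, and all 40 were neurons. The 10 richest cells alone held 28.0%, and the richest had 24 UMIs. Of the 40, 21 had only GABA markers, 11 only Slc17a6, 7 both and 1 neither, close to the split among all positive neurons. Positive neurons were also deeper, with a median of 4651 total UMIs against 3403 in negative neurons.

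Marker lists of other cell types were read in the Grp-positive neurons, without a test. The 8 oligodendrocyte markers summed to 345 CPM in them and 436 CPM in Grp-negative neurons, with all 8 seen in both. The 8 astrocyte markers summed to 906 and 878 CPM, with Aqp4 and Gfap at 0 in the positive neurons. The 8 microglial markers summed to 37.0 and 35.9 CPM, with C1qa, P2ry12 and Tmem119 at 0, and the 8 endothelial markers to 49.0 and 34.7 CPM, with Cldn5, Pecam1, Slco1a4 and Cdh5 at 0. A list of 10 suprachiasmatic markers summed to 162 CPM in Grp-positive neurons and 461 CPM in Grp-negative neurons, and in the positive neurons Prok2 and Six6 were at 0. In subcluster 3 the 1 gene Avp gave 2402 of this list's 2586 CPM. How much of the sums in Grp-positive and Grp-negative neurons was Avp is not given here. A list of 6 subthalamic and parasubthalamic markers went the other way, with 956 CPM in Grp-positive and 327 CPM in Grp-negative neurons, and Barhl1, Lmx1a and Foxa1 were at 0 in the positive ones. Most of both sums was the 1 gene Tac1, at 923 CPM in Grp-positive and 315 CPM in Grp-negative neurons. Tac1 also gave 457 of the list's 560 CPM in subcluster 3, and stood at 1030 CPM in the GABAergic subcluster 10. The thalamic list summed to 723 and 617 CPM, the cortical or amygdalar list to 112 and 99.0 CPM, the striatal list to 59.8 and 73.9 CPM and the arcuate list to 19.6 and 97.3 CPM.

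Neurons formed 23 subclusters, and Grp was concentrated in a few of them. Subcluster 13, GABAergic neurons led by Tac2 (the neurokinin B precursor) and Lamp5, held 177 UMIs in 154 cells, 27.2% of all Grp UMIs. Its Grp level was 203 CPM, and 23 cells were positive (14.9%, exact 95% interval 9.71 to 21.6%, counting error only), with 7.70 UMIs per positive cell. Its other peptide and marker levels were 5907 CPM of Tac2, 719 CPM of Lamp5, 751 CPM of Penk (the enkephalin precursor), 269 CPM of Crh (corticotropin-releasing hormone), 252 CPM of the receptor Gpr83 and 154 CPM of the transcription factor Pou3f2. These cells stood at 609 CPM of Slc32a1 and 4.60 CPM of Slc17a6. Of 6 markers of cortical or amygdalar neurons, Slc17a7, Neurod2 and Tbr1 were at 0 there, and the list summed to 164 CPM against 101 CPM in the other GABAergic neurons.

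Subcluster 3, glutamatergic neurons with Ebf3 and Otp, held 188 Grp UMIs in 501 cells, 28.9% of the total. It stood at 81.4 CPM with 29 positive cells (5.79%, interval 3.91 to 8.21%) and 6.48 UMIs per positive cell. Its levels were 1022 CPM of Slc17a6, 633 CPM of Penk, 297 CPM of Nrn1, 216 CPM of Bdnf (brain-derived neurotrophic factor), 156 CPM of Otp and 70.1 CPM of Ebf3. It also held the vasopressin gene Avp at 2402 CPM, which is most of the 2586 CPM that the 10 suprachiasmatic markers summed to there, with Nms and Six6 at 0. Over all glutamatergic neurons that list was uneven between mice. It summed to 2900 CPM in high fat diet replicate 2 and 1213 CPM in replicate 3, and to at most 264 CPM in the others. Of the subcluster 3 cells of these 2 mice, 0 of 63 and 3 of 24 were Grp-positive. Together subclusters 13 and 3 thus held more of the gene than all other cells, and they are opposite in transmitter. Their order in level depended on the diet. High fat diet mice gave 161 of the 177 UMIs of subcluster 13. In control mice alone subcluster 13 stood at 50.3 CPM and subcluster 3 at 94.3 CPM.

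The next subclusters were lower and thinner. Subcluster 15, glutamatergic neurons with Trp73 and Nppc, had 22 UMIs in 9 of 116 cells (43.8 CPM). Subcluster 12, GABAergic, had 29 UMIs in 8 of 167 cells (38.1 CPM), and the 10 UMIs of subcluster 18, also GABAergic, lay in 2 cells of 1 mouse. Subcluster 4, the GABAergic neurons mostly from the 3 mice that stood apart, had 32 UMIs in 11 of 436 cells (30.1 CPM). Subcluster 10, GABAergic neurons with Prdm12, Sst (somatostatin) and Tac1 (the substance P precursor), had 19 positive among 253 cells (7.51%) but only 2.32 UMIs per positive cell (29.5 CPM). In subcluster 1, GABAergic neurons with Gal (galanin) and Nts (neurotensin), 15 of 628 cells were positive (14.1 CPM). Subcluster 6, glutamatergic neurons with Trh (thyrotropin-releasing hormone), had 17 positive of 418, with 1.47 UMIs per positive cell (9.79 CPM). Subcluster 16, glutamatergic, had no Grp UMI in 105 cells. The 95% interval for the share of positive cells in subcluster 13 (from 9.71%) lay above that of subcluster 3 (to 8.21%). The interval of subcluster 13 overlapped those of subclusters 15 (to 14.2%) and 10 (to 11.5%), and that of subcluster 3 overlapped those of subclusters 15 and 12. These intervals cover counting error over pooled cells and not the spread between mice, so they do not rank the subclusters.

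**Figure D1:**
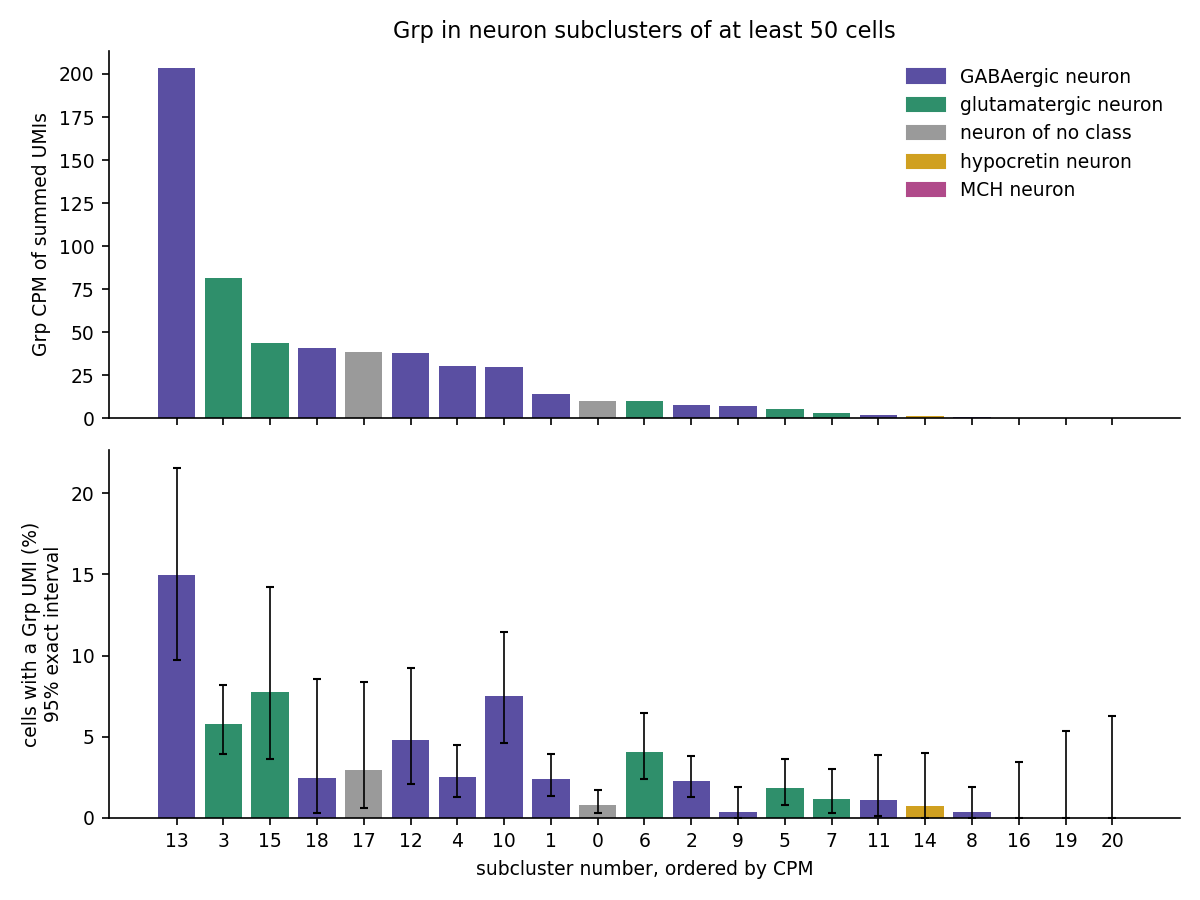
Grp in each neuron subcluster, as CPM of all UMIs and as the percentage of cells with at least 1 Grp UMI with its exact 95% interval, coloured by class. Over both diets together subcluster 13 stands highest on both, at 203 CPM and 14.9% of cells, followed on the CPM scale by subcluster 3 at 81.4 CPM. In control mice alone subcluster 13 stood at 50.3 CPM and subcluster 3 at 94.3 CPM.

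Other genes followed a similar pattern across the 21 subclusters of at least 50 cells. Of 11900 genes compared, 74 had a Pearson correlation of at least 0.6 with Grp in log2(CPM + 1), and the 8 nearest are named. The nearest was Rasa1, a Ras GTPase-activating protein (r = 0.80), at 80.4 CPM in subcluster 13 against a median of 57.5 CPM, with its highest level in subcluster 18 (90.0 CPM). Next came Tex10 (0.77), Hcrtr2 (0.76), Sostdc1 (0.76), Scp2 (0.76), Sesn2 (0.74), Rps6kl1 (0.74) and Ctsz (0.73). Hcrtr2, which encodes an orexin receptor, stood at 19.5 CPM in subcluster 13, 17.3 CPM in subcluster 3 and 47.8 CPM in subcluster 15, with a median of 7.83 CPM over subclusters. Of the 8 genes only Tex10 was highest in subcluster 13, where Grp was highest over both diets together. Sostdc1 and Scp2 were highest in subcluster 17 and Sesn2 and Ctsz in subcluster 18, and Sostdc1 stood at 12.6 CPM in subcluster 3, close to its median of 12.2 CPM. These r are descriptions over subclusters that share the same mice and libraries.

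In GABAergic neurons the mean Grp level was higher in the mice on the high fat diet, as was the mean number of UMIs per positive cell. The class is the sum of 15 to 371 neurons in each control mouse and 104 to 428 in each high fat diet mouse, leaving out high fat diet replicate 7. In control replicates 1 to 7 Grp stood at 14.0, 10.1, 4.46, 12.5, 12.8, 26.4 and 22.9 CPM, from 13, 5, 8, 23, 21, 3 and 4 UMIs. In high fat diet replicates 1 to 6 it stood at 33.3, 35.2, 23.9, 55.2, 21.8 and 86.5 CPM, from 45, 75, 35, 78, 15 and 47 UMIs. All 6 high fat diet mice lay above the control mean and 4 lay above every control mouse. The highest control values, 26.4 and 22.9 CPM, came from replicates 6 and 7 with 31 and 15 neurons, and both lay above the lowest high fat diet value. The means were 14.7 ± 7.53 CPM (SD, n = 7) and 42.7 ± 24.5 CPM (n = 6), a log2 ratio of 1.53.

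The share of positive GABAergic neurons depended on how mice were weighted. As a mean over mice it was 3.70 ± 2.14% on control chow (SD, n = 7) and 3.61 ± 0.911% on the high fat diet (n = 6), a log2 ratio of −0.03. The control mean includes replicates 6 and 7, with 2 of 31 and 1 of 15 cells positive. Over all cells of each diet 35 of 1357 (2.58%) and 61 of 1805 (3.38%) were positive, and 1.20% and 2.27% when cells were thinned to 1500 UMIs. UMIs per positive cell were 3.25, 1.25, 1.33, 3.29, 1.91, 1.5 and 4.00 in control replicates 1 to 7. In high fat diet replicates 1 to 6 they were 4.5, 5.36, 3.18, 4.59, 3.75 and 9.40. Of the high fat diet mice 4 lay above every control mouse, and the means were 2.36 ± 1.12 and 5.13 ± 2.22 UMIs (SD), a log2 ratio of 1.12. The median GABAergic neuron of a control mouse had 5348 ± 3267 UMIs and that of a high fat diet mouse 4235 ± 1353 (SD over mice). Over all cells of each diet the medians were 4456 and 3489 UMIs. The part of depth in the diet gap was not tested. With every cell thinned to 1500 UMIs the class stood at 19.5 ± 17.1 and 40.5 ± 18.8 CPM, a log2 ratio of 1.05, and as means over mice 2.00% and 2.47% of cells were positive.

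The diet gap in level was similar in both sequencing pools. The gene was chosen over these same mice, so that similarity is no independent evidence. In pool 1 the means over mice were 12.9 and 37.5 CPM and in pool 2 17.2 and 47.8 CPM, log2 ratios of 1.54 and 1.47, from 4 control and 3 high fat diet mice in pool 1 and 3 of each in pool 2. Without the 3 mice that stood apart the log2 ratio was 1.49. In neurons gated on transmitter genes alone it was 1.38, from 13.4 ± 8.94 and 34.7 ± 12.4 CPM. Markers of other cells in the class overlapped between diets: the 8 astrocyte markers summed to 822 to 1100 CPM over control mice and 762 to 1200 CPM over high fat diet mice, and the 8 oligodendrocyte markers to 224 to 729 and 263 to 466 CPM. The suprachiasmatic list summed to 91.8 to 521 and 79.2 to 201 CPM.

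**Figure D2:**
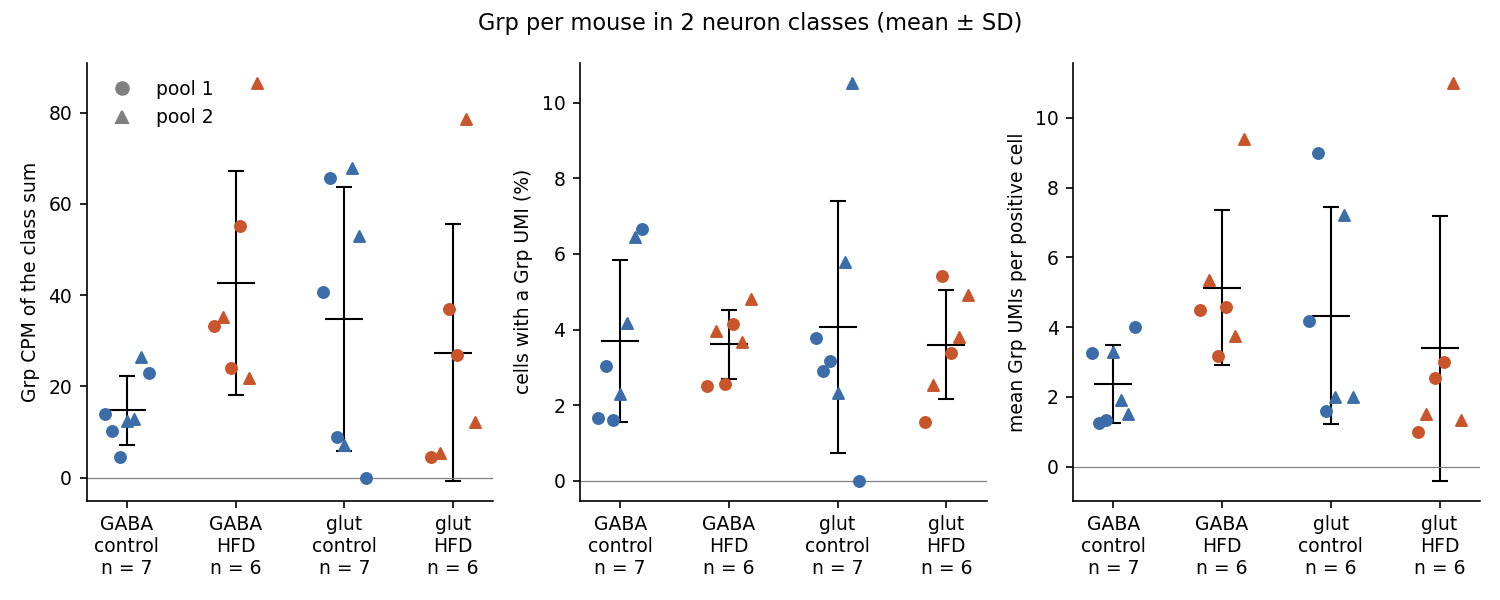
Grp by mouse in GABAergic and glutamatergic neurons, as CPM of all UMIs, percentage of cells with a Grp UMI and Grp UMIs per positive cell, with mean and SD by diet; each point is 1 mouse with at least 10 cells of the class. In GABAergic neurons CPM and UMIs per positive cell sit higher on the high fat diet (means 42.7 against 14.7 CPM), while the share of positive cells overlaps.

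The gap in GABAergic neurons lay in the cells rich in Grp. Cells with exactly 1 UMI numbered 21 of 1357 on control chow and 26 of 1801 on the high fat diet, and cells with 2 to 4 UMIs numbered 11 and 13. Cells with at least 5 UMIs numbered 3 in control mice, 1 in each of 3 mice, and 22 in high fat diet mice, with some in 6 of 6. Per mouse they were 0.161 ± 0.202% of GABAergic neurons on control chow (SD, n = 7, from 0 to 0.418%). On the high fat diet they were 1.52 ± 1.19% (n = 6, from 0.467 to 3.85%). The highest control value was 1 of 239 cells and the lowest high fat diet value 2 of 428. Control replicates 6 and 7, with 31 and 15 cells, had none. Cells with at least 5 UMIs held 28 of the 77 Grp UMIs of control mice but 236 of the 295 of high fat diet mice. The richest GABAergic neuron of each mouse had 2 to 13 UMIs on control chow and 9 to 20 on the high fat diet. The limit of 5 UMIs was chosen after the values were seen, and the gene for its diet difference in these neurons. The separation of the diets here is therefore a description and no evidence.

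**Figure D3:**
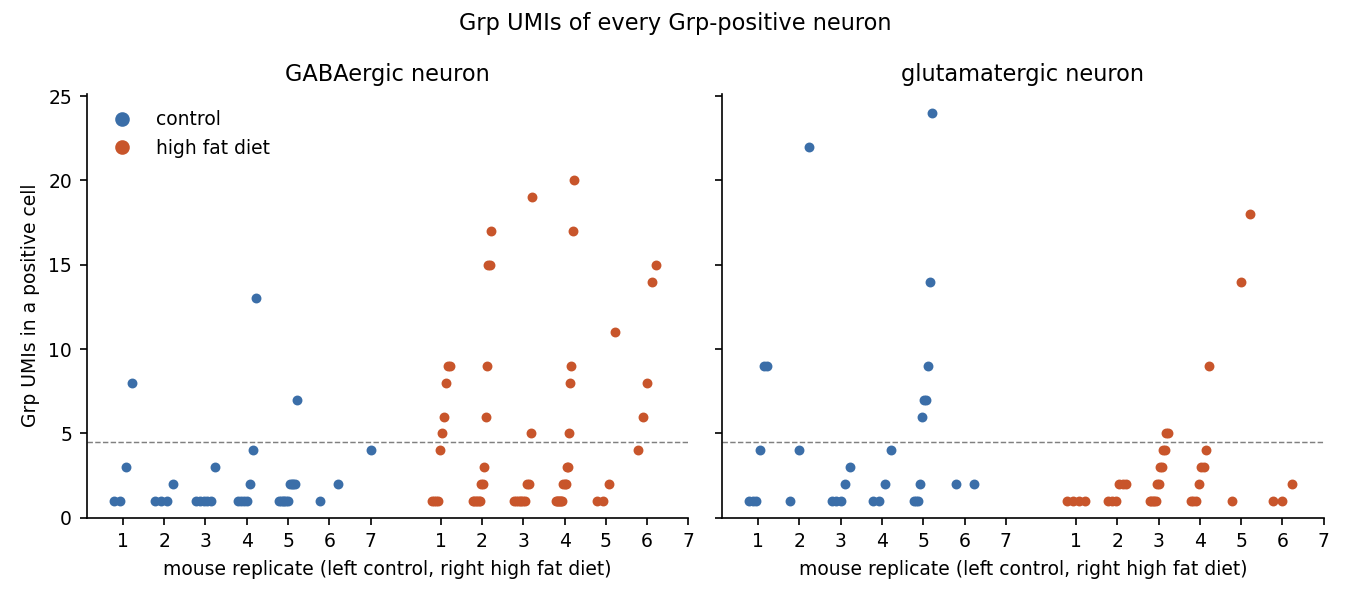
Grp UMIs in every Grp-positive GABAergic and glutamatergic neuron, by mouse; each point is 1 cell, the vertical axis is linear and the dashed line separates cells with at least 5 UMIs. In GABAergic neurons 22 cells with at least 5 UMIs belong to high fat diet mice and 3 to control mice, while in glutamatergic neurons 5 and 9 do.

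Subcluster 13 held 16 of the 77 Grp UMIs of control GABAergic neurons and 161 of the 295 of high fat diet ones. Its Grp level was 0, 89.7, 22.5, 0, 135, 0 and 94.8 CPM in control replicates 1 to 7, from 47 cells in all. In high fat diet replicates 1 to 6 it was 296, 269, 157, 424, 209 and 744 CPM. These cells numbered 107 with the 1 cell of replicate 7, which had no Grp UMI. Every high fat diet mouse with more than 1 cell of the subcluster lay above every control mouse, with means of 350 ± 213 CPM (SD, n = 6) and 48.8 ± 56.3 CPM (n = 7). The control mean includes replicates 2 and 6 with 1 cell each and replicate 7 with 2. With high fat diet replicate 7 also included, the high fat diet mean was 300 ± 235 CPM (SD, n = 7). The numbers behind each mouse are small, with 1 to 23 cells in a control mouse and 5 to 35 in these 6. The share of positive cells was nearly the same, 7 of 47 (14.9%) and 16 of 107 (15%), with 2.29 and 10.1 UMIs per positive cell. In the 4 control mice with a positive cell it was 1 to 4 UMIs per positive cell, and in the 6 high fat diet mice 8.5 to 11.

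Outside subcluster 13 the diets overlapped more. On control chow the other GABAergic neurons stood at 10.6 ± 9.00 CPM (SD, n = 7 mice), and on the high fat diet at 21.4 ± 15.5 CPM (n = 6). Within them, subcluster 1 with Gal and Nts had no Grp UMI in 267 control cells from 6 mice, and 46 UMIs in 15 of 361 cells on the high fat diet. Those came from 5 of the 7 high fat diet mice, in which its level ran from 7.17 to 133 CPM. A count of 0 in 267 cells allows a share of up to 1.12%. Subclusters 10 and 2 did not lean that way: 10 of 117 control cells and 9 of 136 high fat diet cells were positive in subcluster 10, and 9 of 256 and 5 of 353 in subcluster 2.

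The mix of subclusters in each mouse was also read. If each subcluster held Grp at its level over all mice, the mix of each mouse would give 27.2 ± 13.8 CPM in control and 28.0 ± 1.26 CPM in high fat diet GABAergic neurons (SD, n = 7 and 6). Of the class, subcluster 13 made up 4.43 ± 4.26% on control chow and 5.59 ± 2.06% on the high fat diet (SD). The control means include replicate 7, where 2 of 15 neurons were in subcluster 13 (13.3%) and the mix gives 56.4 CPM. Medians over mice were 22.5 CPM on control chow and 28.1 CPM on the high fat diet. For the share of subcluster 13 the medians were 3.04% and 5.46%. The part of the mix in the diet gap was not tested.

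In glutamatergic neurons the diets overlapped throughout. Grp stood at 40.6, 65.7, 8.95, 7.15, 68.0, 52.9 and 0 CPM in control replicates 1 to 7, and at 4.48, 5.43, 37.0, 26.9, 78.5 and 12.1 CPM in high fat diet replicates 1 to 6. Low and high mice were found in both groups. Means were 34.7 ± 29.0 CPM (SD, n = 7) and 27.4 ± 28.1 CPM (n = 6), a log2 ratio of −0.34. Within pool 1 that ratio was −0.34 and within pool 2 −0.41, but without the 3 mice that stood apart it was 0.22. Positive cells made up 4.07 ± 3.33% and 3.60 ± 1.44%, and cells with at least 5 UMIs numbered 9 of 796 and 5 of 1109. The suprachiasmatic list summed to 44.4 to 264 CPM over control mice and 127 to 2900 CPM over high fat diet mice in this class, and its part in the result was not tested. The difference between the diet ratios of the 2 neuron classes was not tested either, because the gene was chosen for its ratio in GABAergic neurons.

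Subcluster 3 held the same wide spread within each diet. It stood at 130, 164, 9.75, 4.12, 248 and 126 CPM in control replicates 1 to 6, and at 4.26, 0, 134, 132, 423 and 0 CPM in high fat diet replicates 1 to 6. The means were 114 ± 93.6 and 116 ± 164 CPM (SD, n = 6 each), with 19 of 260 and 10 of 241 cells positive and 6.58 and 6.30 UMIs per positive cell. In high fat diet replicate 5 the 423 CPM came from 32 UMIs in 2 of 14 cells.

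**Figure D4:**
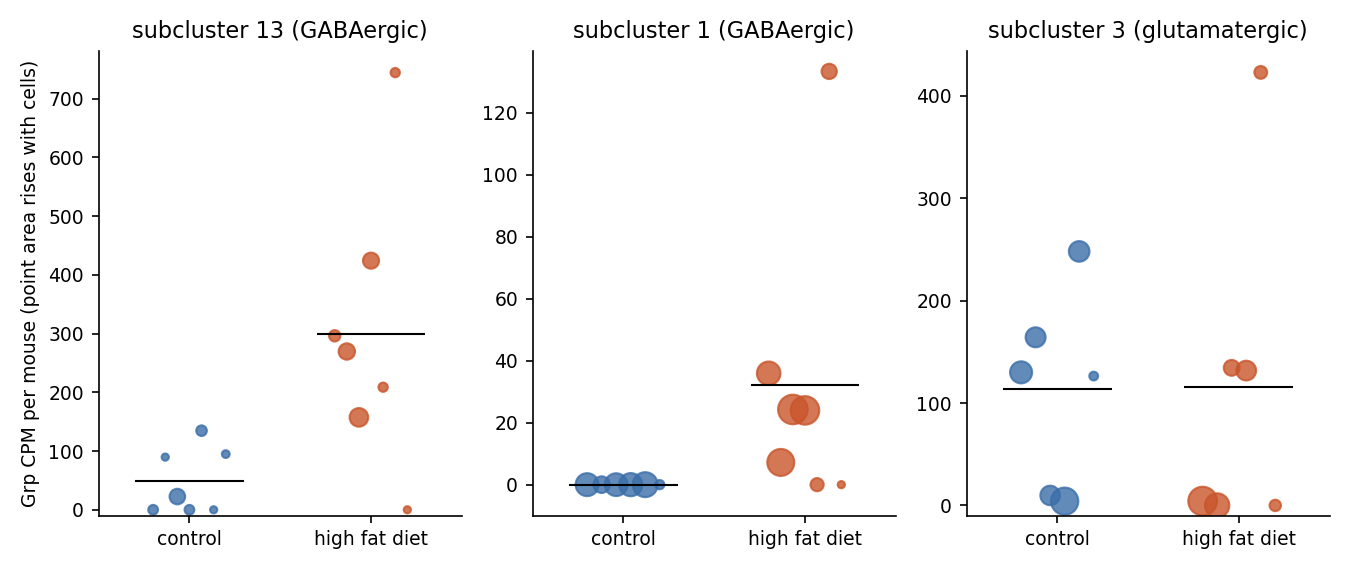
Grp CPM by mouse in subclusters 13 (GABAergic, Tac2), 1 (GABAergic, Gal and Nts) and 3 (glutamatergic, Ebf3 and Otp), each point 1 mouse with a cell of the subcluster and each horizontal line the mean over mice. In subcluster 13 the 6 high fat diet mice with 5 or more cells sit between 157 and 744 CPM and the control mice at or below 135 CPM, while in subcluster 3 both diets span their full range.

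The receptor for the peptide was found in the same subclusters. Grpr had 204 UMIs in 138 neurons and 3 UMIs in other cells, and it was highest in subcluster 13 (63.2 CPM, 28 of 154 cells), subcluster 15 (45.8 CPM, 19 of 116) and subcluster 3 (26.8 CPM, 34 of 501). Within single cells both transcripts were seen together in 11 of the 173 Grp-positive neurons (6.36%), against 2.11% of Grp-negative neurons, with the greater depth of positive neurons given above. In subcluster 13 alone Grpr was seen in 3 of 23 Grp-positive cells (13.0%) and in 19.1% of the Grp-negative ones, whose median depths were 4356 and 4591 UMIs. In subcluster 3 it was 3 of 29 (10.3%) and 6.57%, with median depths of 4763 and 3819.5 UMIs. In subcluster 15 it was 3 of 9 (33.3%) and 15%, with median depths of 5699 and 3446 UMIs. Subclusters 6 and 1 each had 1 cell with both transcripts, of 17 and 15 Grp-positive cells (5.88% and 6.67%), against 1.25% and 1.31% of Grp-negative cells, and subcluster 10 had none of 19.

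Grpr did not pass the test between diets in either class. In GABAergic neurons it ran from 0.54 to 28.7 CPM over control mice and from 6.36 to 10.4 CPM over high fat diet mice, 9.61 ± 9.97 and 8.26 ± 1.55 CPM (SD, n = 7 and 6, on TMM-scaled totals). The highest control values came from 5 and 2 UMIs in replicates 7 and 6. The fitted log2 fold change of Grpr, high fat diet over control, was 0.82 ± 0.45 (SE; edgeR, adjusted p = 0.999854), opposite in sign to the difference of the means, and 1 of 6 high fat diet mice lay above the control mean. In glutamatergic neurons the fitted change of Grpr was 0.40 ± 0.43 (SE; edgeR, adjusted p = 0.999747).

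The other members of the family were sparse. Brs3 had 110 UMIs in 82 neurons, highest in subcluster 13 (18.4 CPM, 10 of 154 cells), then subcluster 2 (10.6 CPM) and subcluster 3 (9.96 CPM), and 4 Grp-positive neurons held it. Nmb, the neuromedin B gene, had 62 UMIs in 58 neurons, and its level was higher in astrocytes (27.1 CPM from 19 UMIs) than in neurons (2.32 CPM). The receptor gene Nmbr had 7 UMIs in 7 neurons, none of them Grp-positive. These 3 genes did not pass the filter on low counts of the edgeR tests.

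Grp-positive neurons were then compared with Grp-negative neurons of the same mouse and class, 3 for each positive cell, matched on total UMIs. Among GABAergic neurons of 8 mice, with 81 positive and 243 negative cells, 3 genes were higher in the positive cells and none lower (edgeR quasi-likelihood test with the mouse as a block, adjusted p under 0.05). That is 0.141% of the 2129 genes tested, while 143 genes (6.72%) had an unadjusted p under 0.05. DESeq2 called 2 other genes, Lamp5 and Gpr83, which stood high in subcluster 13. The matched cells could come from any GABAergic subcluster.

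The 3 genes called in GABAergic neurons were Rgs2, Sec11c and Scg2. Rgs2, which encodes a regulator of G-protein signalling that limits Gq, ran from 326 to 919 CPM over mice in Grp-positive cells (median 598) and from 261 to 466 CPM in negative cells (median 337). Its log2 difference was 0.83 ± 0.15 (SE; edgeR, adjusted p = 0.00759), and it was higher in 7 of 8 mice. Sec11c, which encodes a catalytic subunit of the signal peptidase complex that removes the signal sequence of secreted proteins, had medians of 531 and 252 CPM. The positive cells of Sec11c ranged from 228 to 675 CPM and the negative from 214 to 326 CPM, a log2 difference of 0.87 ± 0.16 (SE; edgeR, adjusted p = 0.00759), higher in 7 of 8 mice. Scg2, the granin secretogranin II of dense-core vesicles, had medians of 3533 and 2496 CPM, with ranges of 2707 to 4485 and 2004 to 2986 CPM. Scg2 was higher in 8 of 8 mice (log2 difference 0.51 ± 0.10, SE; edgeR, adjusted p = 0.0272). Both ranges overlapped for each of the 3 genes. Without high fat diet replicate 2, which gave 14 of the 81 positive cells, none of the 3 passed. Just short of the threshold were Flot1 (0.97, edgeR adjusted p = 0.0971, higher in 8 of 8 mice) and Cbln2 (0.96, edgeR adjusted p = 0.102), and the lowest p among genes with less RNA in positive cells was that of Olfm1 (−0.58, edgeR adjusted p = 0.187, lower in 8 of 8 mice).

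No list around the peptide held more than 1 called gene. Of 19 genes for prohormone processing and dense-core vesicles 15 were tested in GABAergic neurons, 1 was higher (Scg2) and none lower, with a median log2 difference of 0.15 against 0.02 over all genes. Of 40 other neuropeptides 10 were tested and none passed, but 8 of the 10 differences were above 0, with a median of 1.44. The neuropeptide differences with the smallest p were those of Crh (2.48 ± 0.80, SE; edgeR, adjusted p = 0.640), Tac2 (1.90 ± 0.61; edgeR, adjusted p = 0.640), Pnoc (1.61 ± 0.56; edgeR, adjusted p = 0.677) and Vgf (1.27 ± 0.54; edgeR, adjusted p = 0.741). Of 15 genes of Gq signalling 4 were tested and none passed. The bombesin-like family itself had no member tested.

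A further comparison took the negatives from the same mouse and the same subcluster. In 11 mice, with 165 positive and 490 negative neurons of all classes, 2 genes of 2345 (0.0853%) were higher and none lower by edgeR, 144 (6.14%) had an unadjusted p under 0.05, and DESeq2 called 0. Sec11c was again higher, with medians of 406 and 264 CPM and a log2 difference of 0.56 ± 0.11 (SE; edgeR, adjusted p = 0.00860) in 11 of 11 mice. Zrsr2, which encodes a splicing factor of the minor spliceosome, had medians of 364 and 265 CPM and a log2 difference of 0.52 ± 0.11 (SE; edgeR, adjusted p = 0.0111), also in 11 of 11 mice. These cells include those of the GABAergic comparison, so the Sec11c results are not independent. Without the 3 mice that stood apart neither gene passed, and for Sec11c the adjusted p was then 0.0582 (edgeR). Rgs2 (0.29, edgeR adjusted p = 0.982) and Scg2 (0.30, edgeR adjusted p = 0.788) did not pass here. Tac2 stood at −0.18 (edgeR, adjusted p = 0.990).

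Nts had the largest difference among the named genes of the matched subclusters and did not pass. Its level ran from 0 to 6506 CPM over mice in Grp-positive neurons (median 427) and from 52.0 to 1206 CPM in Grp-negative neurons (median 166). The log2 difference of Nts was 1.88 ± 0.38 (SE; edgeR, adjusted p = 0.307), and it was higher in 9 of 11 mice. The neuropeptide list had 9 members tested here, 6 above 0, with a median of 0.82 against −0.01 over all genes and none passing.

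**Figure D5:**
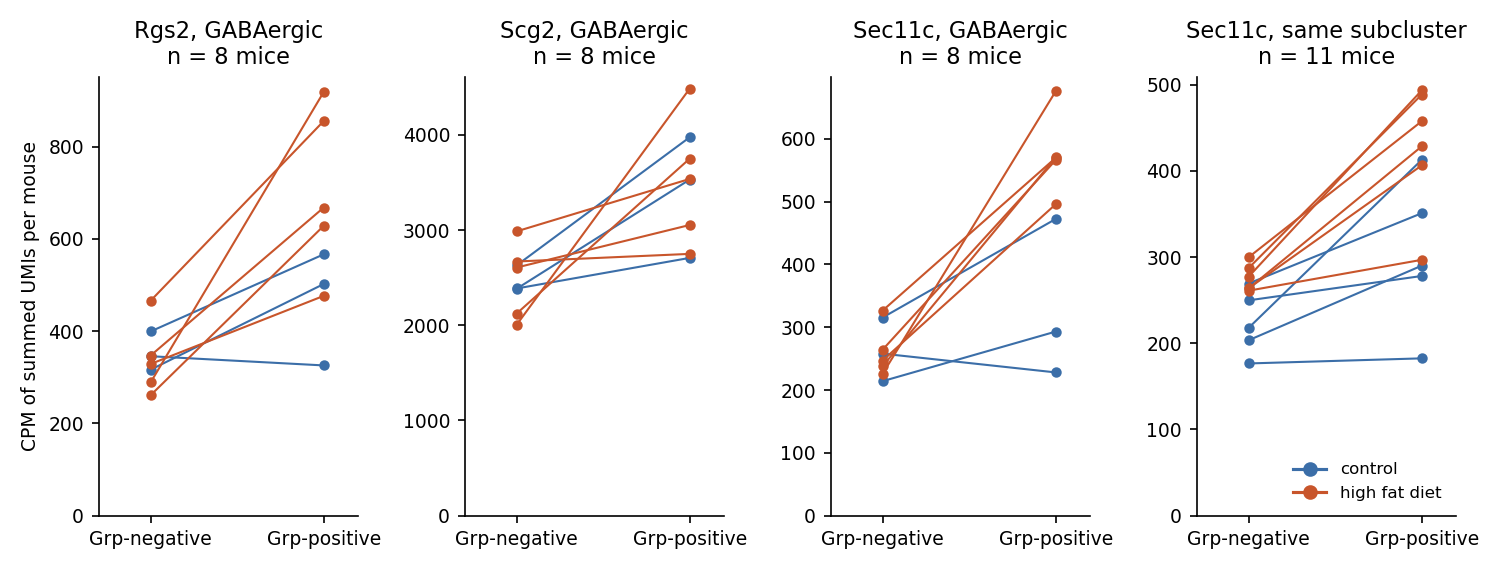
CPM of Rgs2, Scg2 and Sec11c in Grp-positive and depth-matched Grp-negative GABAergic neurons, and of Sec11c in neurons matched also for subcluster. Each line joins the summed cells of 1 mouse. Sec11c is higher in Grp-positive cells in 11 of 11 mice in the matched subclusters.

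In glutamatergic neurons no gene passed. The comparison had 48 positive and 144 negative cells of 6 mice, 0 of 1299 genes (0%) were called by edgeR or by DESeq2, and 82 genes (6.31%) had an unadjusted p under 0.05. Tac1 had the smallest p, with a log2 difference of 0.89 ± 0.22 (SE; edgeR, adjusted p = 0.446) and higher levels in 4 of 6 mice. Penk stood at 1.77 ± 0.60 (SE; edgeR, adjusted p = 0.729), Sec11c at 0.16 (edgeR, adjusted p = 0.954) and Rab3b, a vesicle GTPase, at −1.16 ± 0.34 (SE; edgeR, adjusted p = 0.611).

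The rest of the pathway showed no called difference between diets. In GABAergic neurons edgeR called 0 of 9526 genes (0%), DESeq2 called 2 (Rpph1 and Grp), and an unadjusted p under 0.05 was seen for 157 (1.65%). Grp was chosen for its difference in this same contrast, so its call is no evidence of a difference. Of the 40 other genes tested from the bombesin, Gq signalling, peptide processing and peptidase lists, none passed and none had an unadjusted p under 0.05. The 19 processing and dense-core vesicle genes had a median log2 fold change of −0.03 (6 above 0 and 13 below) and the 11 Gq signalling genes of 0.04, beside −0.001 over all genes. Scg2, which was higher in Grp-positive cells, stood at −0.21 ± 0.15 (SE) between diets in GABAergic neurons (edgeR, adjusted p = 0.999854). In glutamatergic neurons edgeR called 0 of 8685 genes (0%) and DESeq2 0, and an unadjusted p under 0.05 was seen for 135 (1.55%). Of 39 pathway genes there none passed, and Scg2 (−0.28 ± 0.11, SE; edgeR, unadjusted p = 0.0142) and Ecel1, an endothelin-converting-enzyme-like peptidase (−0.83 ± 0.36, SE; edgeR, unadjusted p = 0.0290), were below 0.05 before adjustment only.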

How the data were processed

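Single-cell libraries of 14 mice, 1 table of genes by barcodes each, were read as the UMI counts the authors deposited, which are unscaled whole numbers. The submitters' processing notes list STAR 2.4.2a, Picard 2.2.4 and bcl2fastq 2.18.0.12 and the mouse build mm10 (GRCm38). How UMIs were counted, with which annotation and whether by strand, is not given in the sources used here. Precision is set by depth, 147470 to 5611524 UMIs per mouse, and intervals (exact, 95%) and limits for a count of 0 (3 counts) cover counting error only.

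Barcodes were kept from 500 UMIs and 300 genes upward and up to 20% mitochondrially encoded UMIs. Doublets were called per mouse with at least 300 cells by the Scrublet method in scanpy 1.11.5 (expected rate 5%). Cells, and then neurons again, were clustered on 2000 variable genes other than Grp, 30 principal components and 15 neighbours with leidenalg 0.10.2 at resolution 1. A cell type needed at least 3 of its markers raised 1.5-fold against the rest and present in 10% or more of the cluster. Hypocretin and melanin-concentrating hormone neurons also needed their peptide among the leading genes. A GABAergic or glutamatergic subcluster needed Slc32a1 or Slc17a6 at 200 CPM or more and at least 3 times the other. It also needed 3 class markers in 10% or more of its cells, and leading genes not dominated by other markers. CPM are UMIs per 1000000 UMIs of all genes in the summed cells unless said otherwise. Each mouse was 1 replicate, and class values use mice with at least 10 cells of the class.

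Class sums were compared within mice by exact sign-flip permutation tests (pseudocount 1 CPM). Summed counts went into edgeR 4.0.16 under R 4.3.3 (robust quasi-likelihood F test, TMM, filterByExpr, Benjamini-Hochberg over all genes tested), with the mouse as a block for Grp-positive against Grp-negative cells (mice with at least 5 positive cells) or sequencing pool as a covariate for diet. The block is the mouse itself, since both sides come from 1 animal. The edgeR fits were also run on simulated counts, and the share of true changes they recovered is not given here. Alternatives were DESeq2 1.42.0, RLE scaling, no filter on low counts, other cell matching, the marker gate and leaving mice out.

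The gene, the marker lists and the gene lists were chosen with earlier results of these data known. The rule for naming genes takes Grp, its family, in each comparison of Grp-positive cells up to 10 genes past adjusted p 0.05 in each direction or the 5 of smallest p, up to 4 members of each list, and the 8 genes nearest in pattern. Genes outside it are named as subcluster markers or as calls of DESeq2.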

Additional observations from a re-analysis of the deposited data

Results flagged for a closer look

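In 3 of 22 groups of mice examined, 1 mouse stood apart from the rest by its gap over the group's range (Dixon's 95% limit), where chance gives about 1 in 20. In GABAergic neurons, high fat diet replicate 6 had 9.40 Grp UMIs per positive cell, against 3.18 to 5.36 in the other 5 high fat diet mice. In glutamatergic neurons, high fat diet replicate 5 had 11.0 Grp UMIs per positive cell, against 1.00 to 3.00 in the others, and rested on 3 positive cells. Grpr in glutamatergic neurons stood at 45.4 CPM in high fat diet replicate 6, against 3.36 to 16.7 CPM in the others.

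Barcodes that failed the filters were used in no comparison and also held Grp. In the 6167 such barcodes of high fat diet mice 20 Grp UMIs lay among 1429908, or 14.0 CPM. In the 6865 of control mice there were 11 among 1665419, or 6.60 CPM.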

How the results depend on the processing

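The diet ratio of Grp in GABAergic neurons kept its sign under every alternative run, from 1.20 to 1.74 (log2 of CPM) when each mouse was left out in turn. UMIs per positive cell ran from 0.86 to 1.30 and the share of positive cells from −0.16 to 0.17. In glutamatergic neurons the same ranges were −1.02 to −0.09 for CPM, −1.21 to 0.0008 for UMIs per positive cell and −0.40 to 0.27 for the share, and with the marker gate UMIs per positive cell moved to −1.37. Neurons stayed above oligodendrocytes by 3.71 to 4.12 (log2) when each mouse was left out, and over the other settings by 1.58 (log2(CPM + 10)) to 4.47 (thinned). GABAergic against glutamatergic neurons ran from −0.41 to 0.21 when each mouse was left out, and reached 0.27 with classes from clusters.

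Counts of genes called between Grp-positive and Grp-negative cells depended on the setting, and the cause was not tested. Without a filter on low counts they were 27 (GABAergic), 29 (glutamatergic) and 23 (same subcluster). With all Grp-negative cells they were 7, 8 and 6, and with at least 2 Grp UMIs 5 (GABAergic) and 10 (glutamatergic). Without the replicate block they were 5 (GABAergic) and 0 (same subcluster). In the same subcluster DESeq2 called 0, doublets left in gave 1, and leaving out the 3 mice that stood apart gave 0. Leaving out each mouse gave 0 to 7 (0 without high fat diet replicate 2, 7 without high fat diet replicate 6, 5 without control replicate 3), 0 to 3 (3 without control replicate 5) and 1 to 3 (1 without control replicate 5). By setting, Rgs2 and Sec11c passed in 13 of 16 in GABAergic neurons, with adjusted p up to 0.315 and 0.176, and Scg2 in 10 of 16 (up to 0.288). In the same subcluster Sec11c passed in 15 of 19 (up to 0.273) and Zrsr2 in 12 of 19 (up to 0.660). Of the pathway genes by diet none passed in any setting; over all genes tested by diet, Grp included, edgeR without a filter called 8 (GABAergic) and 1 (glutamatergic) against 0 with it.

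Diets were not paired: no paired analysis was possible because the replicate numbers of the diets only name mice in listed order. With 5 or fewer Grp UMIs in several mice and few cells in each subcluster, differences within a subcluster rest on a few cells.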
